A study of Mus musculus with 12 samples.

Results

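The IL-1 family of cytokines, their receptors and their natural inhibitors was followed through 10 genes, selected by symbol from the 53801 genes in the RNA-seq tables of infarcted mouse hearts. They comprised 4 agonist ligands (*Il1a*, *Il1b*, *Il33* and *Il18*), 3 subunits of signalling receptors (*Il1r1*, *Il1rap* and *Il1rl1*), and 3 antagonists or decoys (*Il1rn*, *Il1r2* and *Il18bp*). All 10 symbols were present, each on 1 gene identifier. The study compared whole hearts from C57BL/6N mice after sham surgery, 1 day after acute myocardial infarction (AMI) and 7 days after AMI, with 4 hearts per group and 12 libraries in all. AMI was produced by permanent suture ligation of the left coronary artery in male mice 10 to 14 weeks old. The labels give no genotype beyond the strain, no agent besides the isoflurane that every operated mouse received, and no time of collection for the sham hearts. The libraries of a group are biological replicates in the study's text, and whole hearts were used, so the infarct and the rest of the heart were read together.

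IL-1α and IL-1β bind IL-1 receptor 1 (*Il1r1*), which then recruits the accessory protein encoded by *Il1rap* and signals through MyD88 to NF-κB. IL-1 receptor antagonist (*Il1rn*) occupies the same receptor without recruiting the accessory protein, and IL-1 receptor 2 (*Il1r2*) captures IL-1 but lacks the intracellular domain that signals. IL-33 signals through ST2 (*Il1rl1*) with the same accessory protein, whereas IL-18 has its own receptor pair and is neutralised in solution by IL-18–binding protein (*Il18bp*). IL-1β and IL-18 are made as inactive precursors that caspase-1 cleaves, so transcript levels do not give the amount of active cytokine.

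Depth ran from 23204551 to 32166517 counts per library. Cardiomyocyte markers summed to between 53871 and 122813 CPM, counts scaled to the size of the library, in each heart, which places the libraries in the labelled tissue. Library sizes for CPM were adjusted by TMM factors, and changes were tested with edgeR's quasi-likelihood test. FDR denotes its Benjamini-Hochberg adjusted p over the 15306 genes tested, and a gene was called when FDR was below 0.05 with a fold change of 2 or greater. Of the 10 members, 9 passed the filter on low counts, and *Il1a* did not. In a whole heart, fewer cells of one type and less RNA per cell cannot be told apart, and this holds for every difference given here. Scaling by library size alone moved the median log2 fold change of all genes by 0.27 for day 1 AMI against sham, 0.13 for day 7 AMI against day 1 AMI and 0.40 for day 7 AMI against sham. The changes given here are relative to the TMM scale, on which these medians were -0.01, 0.02 and 0.03.

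*Il1b*, *Il1rn* and *Il1r2* were the members that were called higher on day 1 and called lower again on day 7, and the sequences upstream of their start sites are shown for that reason. *Il1b* and *Il1rn* both lie on mouse chromosome 2 and *Il1r2* lies on chromosome 1. The windows are the 250 bases before the first transcribed base in RefSeq promoters of build GRCm38.p6, written 5′ to 3′ on the strand of the gene. Capitals mark the TATA box (TATAAA, on the strand of the gene) and AP-1 (TGANTCA, either strand). The *Il1r2* window lies inside the gene's annotated span, downstream of its most 5′ annotated exon.
Il1b, chr2:129371140-129371389, reverse strand: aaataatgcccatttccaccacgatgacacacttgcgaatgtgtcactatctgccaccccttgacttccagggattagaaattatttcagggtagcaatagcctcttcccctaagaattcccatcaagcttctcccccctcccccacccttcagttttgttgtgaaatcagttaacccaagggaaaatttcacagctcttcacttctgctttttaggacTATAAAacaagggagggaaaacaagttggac
Il1rn, first start site, chr2:24336610-24336859, forward strand: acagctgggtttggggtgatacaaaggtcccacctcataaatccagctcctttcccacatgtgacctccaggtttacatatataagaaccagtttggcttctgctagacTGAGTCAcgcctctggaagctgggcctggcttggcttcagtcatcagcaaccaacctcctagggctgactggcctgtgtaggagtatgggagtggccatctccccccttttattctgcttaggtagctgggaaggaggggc
Il1rn, second start site, chr2:24345041-24345290, forward strand: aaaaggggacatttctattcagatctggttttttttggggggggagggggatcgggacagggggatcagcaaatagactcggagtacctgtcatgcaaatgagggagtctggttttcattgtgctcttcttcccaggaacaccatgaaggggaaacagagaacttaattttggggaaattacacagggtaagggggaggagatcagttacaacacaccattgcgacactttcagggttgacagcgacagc
Il1r2, chr1:40085843-40086092, forward strand: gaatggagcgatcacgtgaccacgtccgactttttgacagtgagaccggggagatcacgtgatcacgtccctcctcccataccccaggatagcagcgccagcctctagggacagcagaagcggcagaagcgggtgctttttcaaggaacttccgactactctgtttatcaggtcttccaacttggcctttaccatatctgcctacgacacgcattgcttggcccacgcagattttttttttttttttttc
The TATA box of *Il1b* began 31 bases before the start site, and the AP-1 match of *Il1rn* began 141 bases before its first start site. No other match to these motifs, to the consensus of NF-κB, to the consensus of C/EBP or to PU.1 (GAGGAA) on either strand was found in the 4 windows. Among 32851 RefSeq promoters of the same length, 7.59% held the TATA box, 6.75% AP-1, 7.25% NF-κB, 9.56% C/EBP and 23.3% PU.1. All 10 members matched the promoter table, with 15 windows between them. A TATA box also stood upstream of *Il1a* and *Il33*, AP-1 and PU.1 upstream of *Il1a*, C/EBP upstream of *Il33*, *Il1r1*, *Il1rl1* and *Il18bp*, and NF-κB upstream of *Il1r1*. A match describes the letters only and does not show that a factor bound.

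Day 1 AMI was first compared with sham, to ask which parts of the IL-1 system changed early after the infarct. The agonist ligands *Il1b* and *Il18* and the inhibitors *Il1rn* and *Il1r2* were called higher, and no member was called lower. The 4 members called higher, of 9 tested, stand beside 7.79% of all genes tested, and the 0 called lower beside 2.98%. By FDR alone 7 members rose, beside 22.0% of all genes, and none fell, beside 19.9%. The 3 members added without the fold change minimum were *Il33*, *Il1r1* and *Il18bp*. The median log2 fold change was 1.70 over the 3 agonist ligands tested, 0.40 over the 3 receptor subunits and 5.48 over the 3 antagonists and decoys. Values of the 4 day 1 hearts did not overlap those of the 4 sham hearts for 7 members, beside 36.7% of all genes.

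*Il1b* (chr2:129364570-129371139) encodes IL-1β, the agonist made mainly by activated myeloid cells. It reached 0.522, 0.739, 0.291 and 0.0478 CPM in sham replicates 1 to 4. In day 1 AMI replicates 1 to 4 it reached 8.30, 8.21, 4.71 and 4.13 CPM, all above every sham heart. The log2 fold change was 3.94 ± 0.50 (SE), a 15.4-fold rise (edgeR FDR = 7.34e-05). *Il1a* (chr2:129299610-129309972), its neighbour on the same strand and the ligand that acts as an alarmin from dying cells, was near the floor of the measurement. Its counts were 0, 4, 0 and 1 in the sham hearts and 4, 14, 7 and 0 in the day 1 hearts, which overlap. Fitted without the filter, its log2 fold change was 1.75 ± 1.08 (SE, edgeR FDR = 0.295). The gene shares 11.2% of its exon bases with *Gm14023* on the opposite strand, and the strand setting of the counting is not given in the sources used here, so these few reads are uncertain.

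*Il18* (chr9:50554827-50581840), encoding the interferon-γ–inducing cytokine IL-18, was low in every heart. Its counts were 3, 0, 5 and 8 in sham replicates 1 to 4, against 18, 27, 13 and 19 on day 1. In CPM all day 1 hearts were above all sham hearts, but narrowly, with the lowest at 0.425 against 0.383 in the highest sham heart. The log2 fold change was 1.70 ± 0.57 (SE, edgeR FDR = 0.0266). The call was lost when sham replicate 1 (FDR = 0.0617), day 1 AMI replicate 1 (FDR = 0.0537) or day 1 AMI replicate 2 (FDR = 0.0701) was left out of the edgeR fit. *Il33* (chr19:29925114-29960718) encodes a nuclear cytokine that stromal and endothelial cells release on injury. It measured 5.89, 7.23, 3.01 and 4.92 CPM in sham and 8.79, 12.1, 8.01 and 10.1 CPM on day 1, without overlap. It rose by a log2 fold change of 0.89 ± 0.26 (SE, edgeR FDR = 0.0144), below the 2-fold minimum.

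Both inhibitors of IL-1 rose from almost no reads. *Il1rn* (chr2:24336853-24351494) had 0, 5, 4 and 2 counts in sham replicates 1 to 4. On day 1 it had 197, 265, 147 and 113 counts, or 7.53, 7.91, 4.81 and 3.56 CPM. The log2 fold change was 5.48 ± 0.42 (SE, edgeR FDR = 2.80e-06), a 44.7-fold rise that rests on 11 counts in the 4 sham hearts together. *Il1r2* (chr1:40074079-40125231) had 3, 6, 0 and 0 counts in sham and 129, 380, 59 and 83 counts on day 1. Its log2 fold change was 5.57 ± 0.76 (SE, edgeR FDR = 0.000108), again from only 9 sham counts. The hearts of day 1 differed most from one another in this gene, from 1.93 to 11.3 CPM, and replicate 2 was the highest. Without day 1 AMI replicate 2 the log2 fold change was 4.85, and without sham replicate 2 it was 6.59, so its size is less certain than its direction.

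*Il18bp* (chr7:102014885-102018690), the soluble inhibitor of IL-18, was already present in sham hearts. It measured 9.75, 7.02, 6.11 and 9.18 CPM in sham and 11.4, 12.6, 11.8 and 10.8 CPM on day 1. The 2 groups did not overlap, and the log2 fold change was 0.54 ± 0.18 (SE, edgeR FDR = 0.0274). The FDR rose to 0.0677, 0.0831, 0.0671 and 0.0521 without sham replicate 2, sham replicate 3, day 1 AMI replicate 2 and day 1 AMI replicate 3.

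Of the 3 receptor subunits, 1 passed the test on day 1 and none was called. *Il1r1* (chr1:40225080-40317257), the signalling receptor for IL-1, had 18.3, 22.7, 15.3 and 14.6 CPM in sham replicates 1 to 4. In the day 1 hearts it had 26.6, 30.9, 28.2 and 28.2 CPM, all higher than in sham, with a log2 fold change of 0.68 ± 0.14 (SE, edgeR FDR = 0.00143). *Il1rap* (chr16:26581704-26730117), the shared accessory protein, did not pass the test, with a log2 fold change of 0.30 ± 0.18 (SE, edgeR FDR = 0.191). *Il1rl1* (chr1:40429570-40465415), encoding the IL-33 receptor ST2, did not pass either, at 0.40 ± 0.33 (SE, edgeR FDR = 0.360). For both genes the ranges of the sham and day 1 hearts overlapped.

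**Figure D1:**
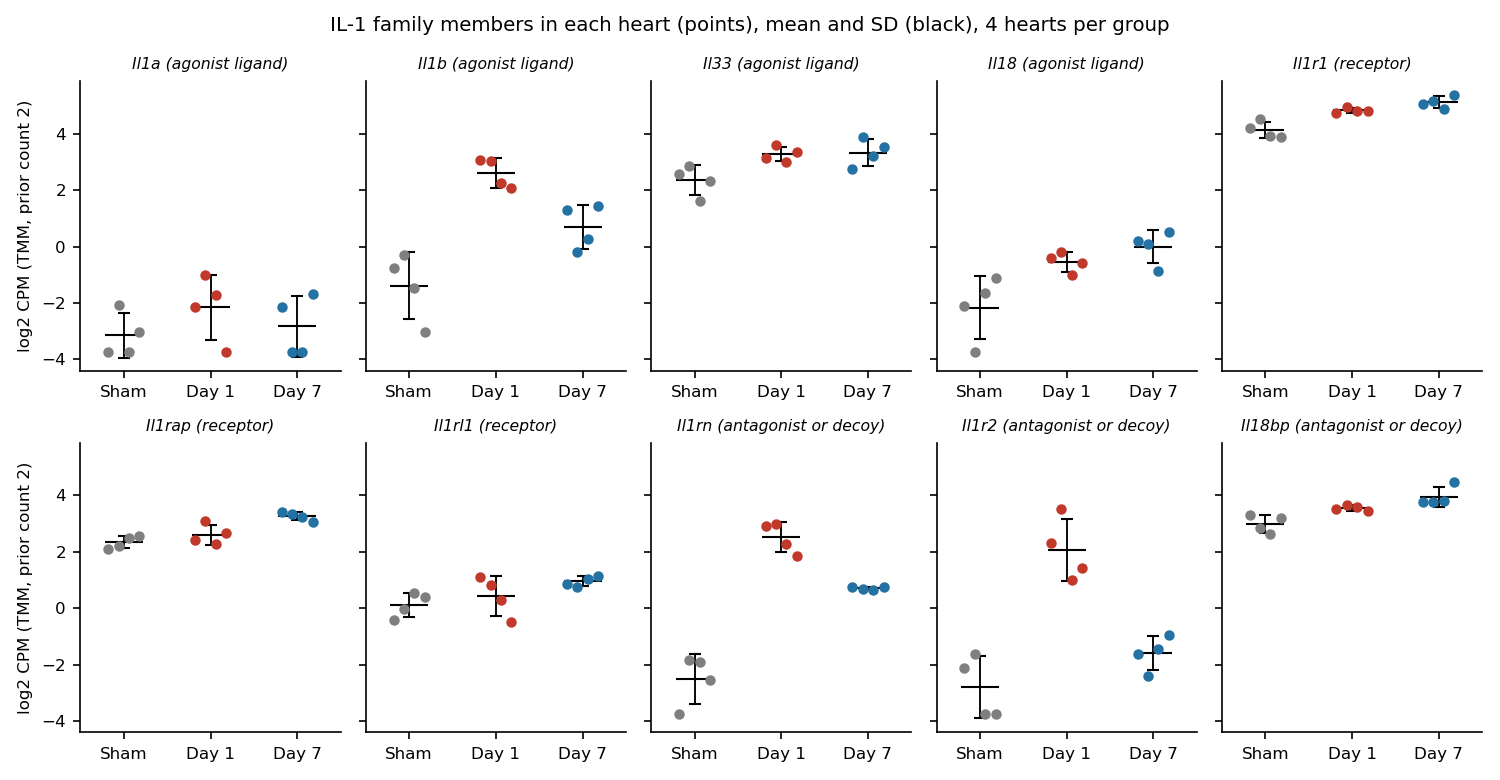
Level of each of the 10 members in each heart, as log2 CPM with a prior count of 2, for sham (grey), day 1 AMI (red) and day 7 AMI (blue). Points are single hearts in replicate order, and black bars give the mean and SD of 4 hearts. *Il1b*, *Il1rn* and *Il1r2* peak on day 1, whereas the means of *Il33*, *Il18*, *Il1r1*, *Il1rap*, *Il1rl1* and *Il18bp* are highest on day 7. Among those with the highest mean on day 7, only *Il18bp* has day 7 hearts all above the day 1 hearts. The bottom of the *Il1a*, *Il18*, *Il1rn* and *Il1r2* panels holds hearts with a count of 0.

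Day 7 AMI was next compared with day 1 AMI, to ask which of these changes persisted. *Il1b*, *Il1rn* and *Il1r2* were called lower, and no member was called higher. The 3 members called lower, of 9 tested, stand beside 2.69% of all genes tested, and the 0 called higher beside 8.55%. By FDR alone the same 3 members fell, beside 22.8% of all genes, and *Il1rap* rose, beside 24.2%. Values of the 2 groups did not overlap for 4 members, beside 44.5% of all genes. Medians were a log2 fold change of 0.09 over the agonist ligands tested, 0.45 over the receptor subunits and -1.93 over the antagonists and decoys.

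*Il1b* measured 2.37, 0.811, 1.14 and 2.62 CPM in day 7 AMI replicates 1 to 4, each below every day 1 heart. It fell by 1.85 ± 0.41 (SE) on the log2 scale, a level 3.60-fold lower (edgeR FDR = 0.00216). *Il1rn* was close to uniform on day 7, at 1.60, 1.55, 1.48 and 1.60 CPM. It fell by 1.93 ± 0.29 (SE) on the log2 scale, 3.81-fold lower (edgeR FDR = 0.000122). *Il1r2* returned to 8, 3, 8 and 13 counts in the 4 day 7 hearts. It fell by 4.21 ± 0.63 (SE) on the log2 scale, 18.5-fold lower (edgeR FDR = 0.000114), and it fell by 3.49 without day 1 AMI replicate 2. The decoy receptor had the largest fall among the 9 members tested.

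The other members were not lower on day 7 by this test. *Il1rap* measured 10.5, 10.1, 9.30 and 8.30 CPM in the day 7 hearts, against 5.28, 8.35, 4.74 and 6.27 CPM on day 1. It rose by a log2 fold change of 0.63 ± 0.17 (SE, edgeR FDR = 0.00795), although day 1 AMI replicate 2 was just above the lowest day 7 heart. *Il18bp* did not pass the test at 0.44 ± 0.18 (SE, edgeR FDR = 0.0556), while its 4 day 7 hearts were all above the 4 day 1 hearts. Without day 7 AMI replicate 1 or replicate 2 it passed, with FDR as low as 0.0409. Without day 7 AMI replicate 4 its log2 fold change was 0.22, with an FDR of 0.246. *Il1r1* did not pass at 0.30 ± 0.13 (SE, edgeR FDR = 0.0801). Its FDR was 0.0407 without day 7 AMI replicate 3 and 0.253 without day 7 AMI replicate 4. For *Il33*, *Il18* and *Il1rl1* the log2 fold changes were 0.09 ± 0.25, 0.64 ± 0.44 and 0.45 ± 0.31 (SE), with FDR of 0.781, 0.254 and 0.258 by edgeR and overlapping hearts.

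Against sham, 3 members were called higher on day 7, *Il1b*, *Il18* and *Il1rn*, beside 15.3% of all genes tested, and 0 were called lower, beside 5.88%. By FDR alone 8 of 9 members rose, beside 30.9% of all genes, and 0 fell, beside 28.4%. This comparison and the day 1 comparison share the same 4 sham hearts. The fold change minimum decided the difference between 3 and 8, since the log2 fold changes of *Il33* (0.98 ± 0.26), *Il1r1* (0.98 ± 0.14), *Il18bp* (0.98 ± 0.18), *Il1rap* (0.93 ± 0.18) and *Il1rl1* (0.84 ± 0.33, all SE) stood under 1. Between 3 and 6 members were called when 1 heart was left out, with 6 when day 7 AMI replicate 1 or 3 was left out and 5 without sham replicate 1, 2 or 4. With library sizes alone as the scale, 8 were called. Values did not overlap for 7 members, beside 53.0% of all genes.

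*Il1b* was still 4.26-fold above sham on day 7 (log2 fold change 2.09 ± 0.53 SE, edgeR FDR = 0.00349), and *Il1rn* 11.7-fold (3.55 ± 0.46 SE, FDR = 1.42e-05). *Il18* had 35, 26, 13 and 40 counts in the day 7 hearts and was 5.07-fold above sham (2.34 ± 0.55 SE, edgeR FDR = 0.00206). For all 3 genes every day 7 heart was above every sham heart. *Il1r2* was the exception among the members tested, with a log2 fold change of 1.36 ± 1.01 (SE, edgeR FDR = 0.263) and overlapping hearts.

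The 3 receptor subunits all rose by FDR alone on day 7 against sham, beside 30.9% of all genes, and 0 were called. Their day 7 and sham hearts did not overlap, as for 53.0% of all genes. *Il1r1* measured 33.3, 35.8, 29.3 and 41.9 CPM on day 7 (edgeR FDR = 3.00e-05 against sham). For *Il1rap*, sham hearts ranged from 4.23 to 5.83 CPM and day 7 hearts from 8.30 to 10.5 CPM (edgeR FDR = 0.000403). *Il1rl1* measured 1.76, 1.62, 1.99 and 2.14 CPM on day 7, against 0.678, 0.904, 1.36 and 1.24 CPM in sham. Its log2 fold change of 0.84 ± 0.33 (SE) passed at an edgeR FDR of 0.0391, and it no longer passed without sham replicate 1 or 2 or day 7 AMI replicate 1, 3 or 4, where FDR reached 0.106. *Il33*, the ligand of ST2, measured 6.66, 14.6, 9.15 and 11.4 CPM on day 7, so that replicate 1 lay below the highest sham heart, and its edgeR FDR against sham was 0.00497. *Il18bp* measured 13.4, 13.6, 13.8 and 22.3 CPM, above all sham and day 1 hearts (edgeR FDR = 0.000342 against sham).

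**Figure D2:**
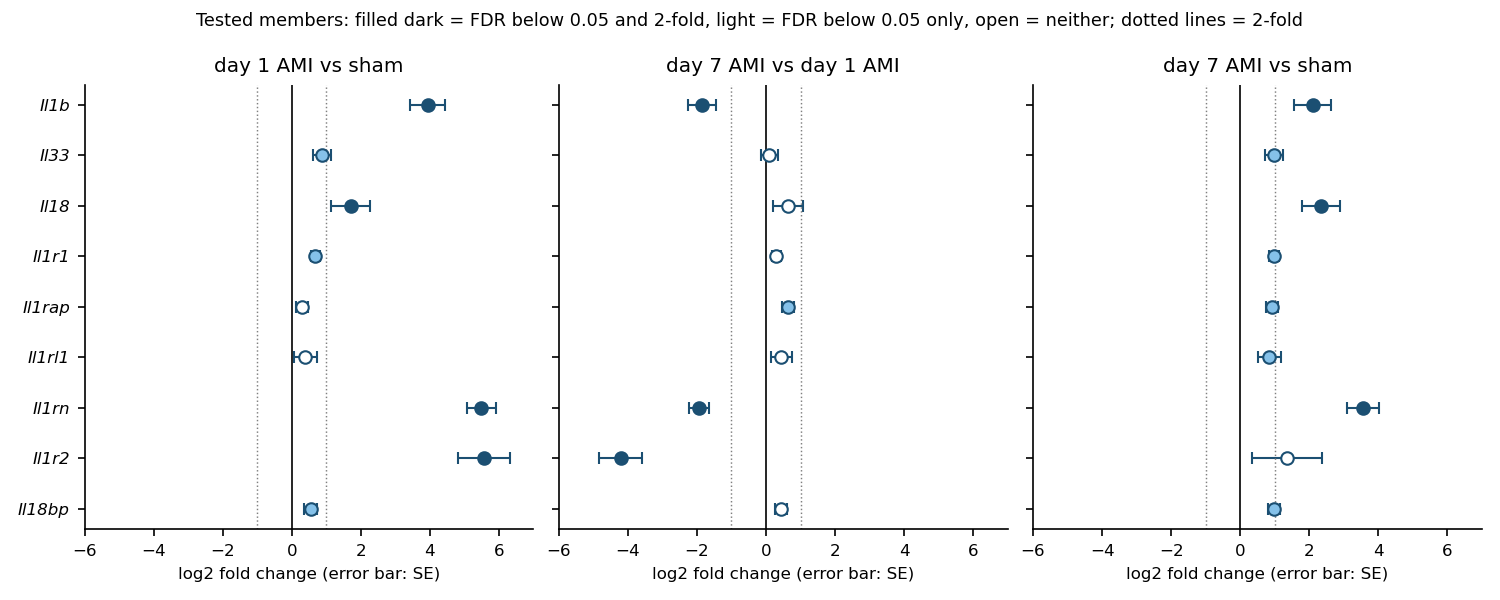
Log2 fold changes of the 9 members tested in the 3 comparisons, with SE as error bars. Dark points passed FDR and the 2-fold minimum, light points passed FDR only and open points neither, and dotted lines mark a 2-fold change. *Il1rn* and *Il1r2* moved most on day 1, with log2 fold changes of 5.48 and 5.57, and 5 members in the comparison of day 7 with sham lie just inside the 2-fold line.

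Levels of different genes were compared in TPM, a transcript level that is divided by length. *Il18bp* was the most abundant member in each group, at 7.88 ± 1.21, 14.6 ± 0.958 and 23.7 ± 6.91 TPM (mean ± SD, n = 4) in sham, day 1 and day 7, and in none of them did its range overlap that of the next gene. *Il1r1* was second in each group, at 4.33 ± 1.06, 8.37 ± 0.625 and 12.2 ± 2.18 TPM (mean ± SD, n = 4). In sham, *Il33* and *Il1rap* followed, at 2.51 ± 0.910 and 1.38 ± 0.211 TPM, and the other 6 members had means of 0.425 TPM or less. In that sham order *Il1r1* and *Il33* overlapped, *Il33* and *Il1rap* overlapped, and *Il1rap* stood clear of *Il18* below it.

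The order changed on day 1, when *Il1b* (8.35 ± 2.91 TPM), *Il1r2* (6.81 ± 4.85), *Il33* (5.82 ± 1.16) and *Il1rn* (5.10 ± 1.41) followed *Il1r1*. Neighbours from *Il1r1* down to *Il1rn* in this order overlapped, so these ranges do not settle the order of neighbours. *Il1r1* (7.67 to 9.09 TPM) was clear of *Il33* (4.66 to 7.24) and of *Il1rn* (3.86 to 6.44). *Il1rn* in turn was clear of *Il1rap* at 2.17 ± 0.496 TPM. *Il18* followed at 1.58 ± 0.423 TPM, *Il1rl1* at 0.540 ± 0.370 and *Il1a* at 0.158 ± 0.137 (mean ± SD, n = 4). By day 7 *Il33* stood next after *Il1r1*, at 7.58 ± 2.56 TPM, clear of *Il1rap* at 3.75 ± 0.452. *Il18* (2.94 ± 0.995), *Il1b* (2.65 ± 1.34) and *Il1rn* (1.56 ± 0.251) came next and overlapped one another, and *Il1rl1* (0.703 ± 0.0907), *Il1r2* (0.588 ± 0.379) and *Il1a* (0.0925 ± 0.113) were lowest.

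Summed by role, the antagonists and decoys were above the agonist ligands in all 12 hearts. The sums were 7.22 to 9.66 TPM against 2.38 to 4.66 TPM in sham, 21.8 to 35.9 against 12.1 to 21.1 on day 1, and 19.8 to 36.0 against 9.48 to 17.4 on day 7. *Il18bp*, which does not bind IL-1, made up 94.7% to 99.4% of the inhibitor sum in sham, 44.0% to 67.6% on day 1 and 88.5% to 93.4% on day 7. *Il1b* made up 1.57% to 18.5% of the agonist sum in sham hearts, 41.7% to 60.0% on day 1 and 8.77% to 30.3% on day 7.

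For IL-1 itself the balance was closer. In each day 1 heart *Il1rn* was below *Il1b*, at 6.20 against 10.2, 6.44 against 11.4, 3.91 against 6.20 and 3.86 against 5.55 TPM. With the decoy added, *Il1rn* and *Il1r2* together were above *Il1b* in 4 of 4 day 1 hearts, at 13.1, 20.1, 7.45 and 7.06 TPM. The same sum was above *Il1b* in 2 of 4 day 7 hearts and in 1 of 4 sham hearts. *Il1r2* exceeded the signalling receptor *Il1r1* in 1 heart only, day 1 AMI replicate 2, at 13.7 against 9.09 TPM. These are transcript levels and say nothing of how much of each protein was present.

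**Figure D3:**
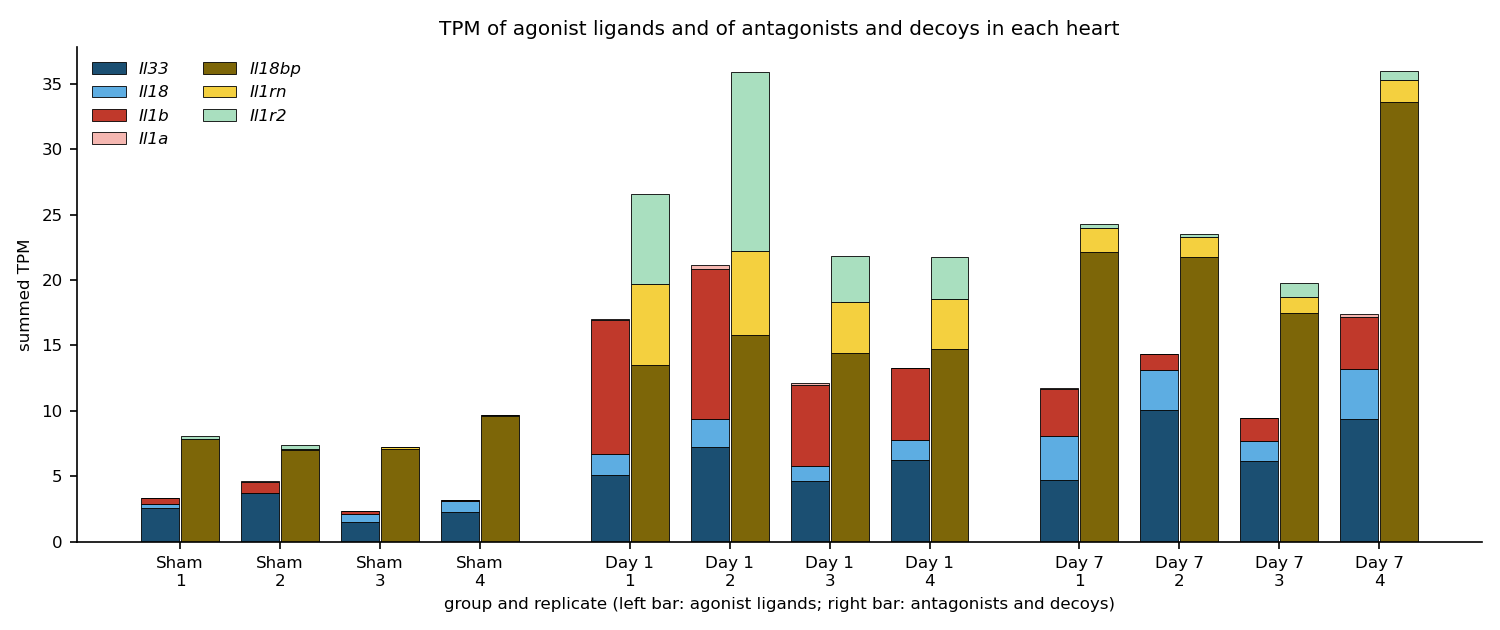
Summed TPM in each heart for the agonist ligands (left bar of each pair) and the antagonists and decoys (right bar), split by gene and starting at 0. In all 12 hearts the right bar is the taller. *Il18bp* fills most of it in sham and day 7 hearts, and *Il1rn* and *Il1r2* add visibly to it in the 4 day 1 hearts.

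Ratios between an inhibitor or receptor and its partner were then formed within each heart, on the log2 CPM scale with a prior count of 2, and compared by an exact two-sided permutation test of 4 hearts against 4. There were 15 tests, from 5 pairs in 3 comparisons, and adjusted p covers all 15. The smallest p that 4 against 4 allows is 0.0286, and no pair passed 0.05 after adjustment. With 15 tests, a few tests at that smallest p could not pass, so the adjusted p does not count against a change there. Since values of CPM are not divided by length, only changes of a ratio are read here and not its level.

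The log2 ratio of *Il1rn* to *Il1b* varied little among the 4 day 1 hearts, at -0.14, -0.05, 0.03 and -0.21. In the same hearts *Il1b* itself ranged from 4.13 to 8.30 CPM. In day 7 hearts the ratios were -0.55, 0.87, 0.35 and -0.69, spread on both sides of the day 1 values. Sham ratios ran from -3.00 to 0.48 and rest on counts of 0 to 18. The mean differences were 1.03 for day 1 against sham and 0.09 for day 7 against day 1 (exact permutation p = 0.314 and 0.886, adjusted p = 0.524 and 0.886).

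The ratios of *Il1r2* to *Il1r1* and to *Il1b* held the 3 tests at the smallest possible p. Against *Il1r1*, the log2 ratios were -6.31, -6.15, -7.69 and -7.62 in sham, -2.41, -1.44, -3.82 and -3.39 on day 1, and -6.70, -7.56, -6.31 and -6.34 on day 7. The ratio was 4.18 above sham on day 1, and the day 7 minus day 1 difference was -3.96, with no overlap of hearts in either (exact permutation p = 0.0286 and adjusted p = 0.143 for each). Against *Il1b*, the day 7 ratios of -2.93, -2.22, -1.72 and -2.38 lay below every day 1 ratio, which ran from -1.26 to 0.46. The day 7 minus day 1 difference was -1.77 (exact permutation p = 0.0286, adjusted p = 0.143). Day 1 and sham overlapped for that pair, with a difference of 0.89 (exact permutation p = 0.0857, adjusted p = 0.184).

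For IL-18 the ratio of *Il18bp* to *Il18* had means of 5.15 ± 1.08 in sham, 4.09 ± 0.33 on day 1 and 3.95 ± 0.50 on day 7 (log2 scale, SD, n = 4). The differences from sham were -1.06 and -1.20, and all groups overlapped (exact permutation p = 0.0857 and adjusted p = 0.184 for both). For IL-33 the ratio of *Il1rl1* to *Il33* had means of -2.23 ± 0.89, -2.85 ± 0.74 and -2.38 ± 0.53 in the same order (log2 scale, SD, n = 4). Its differences were -0.62, 0.47 and -0.15 for day 1 against sham, day 7 against day 1 and day 7 against sham, and the smallest exact permutation p was 0.371 (adjusted p = 0.545).

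**Figure D4:**
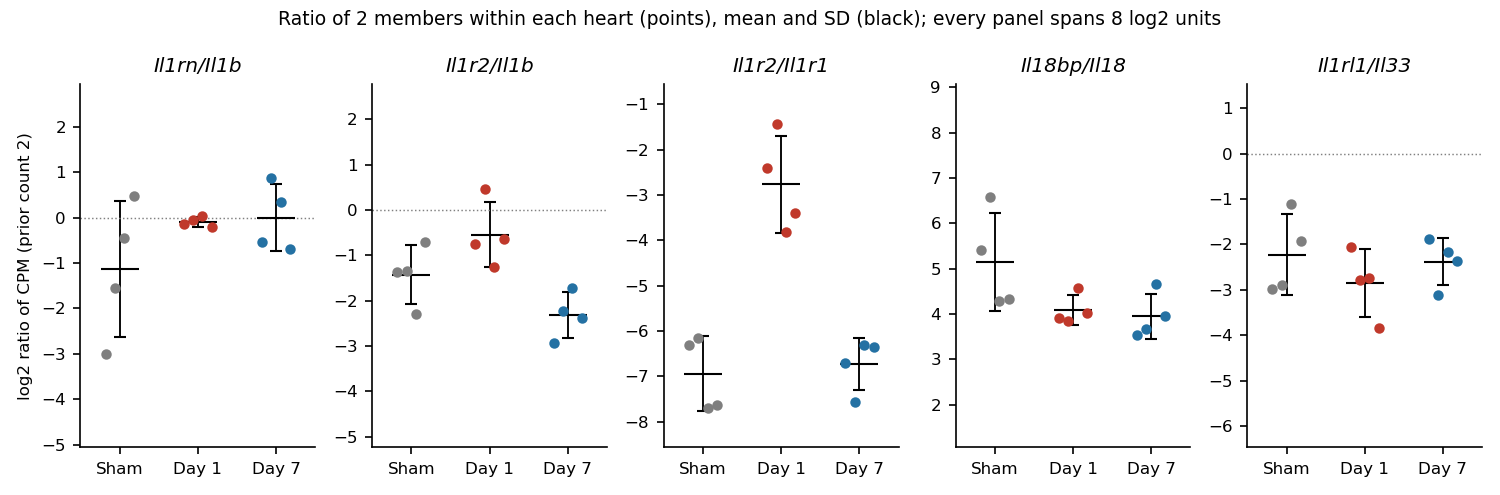
Log2 ratio of CPM of 2 members in each heart, for 5 pairs. Points are hearts in replicate order, black bars give the mean and SD of 4 hearts, and every panel spans the same number of log2 units. The 4 day 1 ratios of *Il1r2* to *Il1r1* lie between -3.82 and -1.44, above all sham and day 7 hearts, while the day 1 ratios of *Il1rn* to *Il1b* lie within -0.21 to 0.03.

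The rest of the family was counted from lists chosen with these data known. Of 5 other ligands only *Il1f9*, the gene of IL-36γ, passed the filter, and the other 4 had a count of 0 in every heart. *Il1f9* had 3, 6, 0 and 1 counts in sham, 31, 71, 16 and 31 on day 1, and 1, 1, 1 and 7 on day 7. It rose by a log2 fold change of 3.32 ± 0.68 on day 1 and fell by 3.72 ± 0.67 by day 7 (SE, edgeR FDR = 0.00162 and 0.000477), and like *Il1r2* it did not pass against sham on day 7. Of 6 other receptors 4 were tested. Against sham 1 was called on day 1 and 3 on day 7, all higher, beside 7.79% and 15.3% of all genes. *Il18rap*, the accessory subunit of the IL-18 receptor, rose by 2.03 ± 0.44 on day 1 and 2.09 ± 0.44 on day 7 (SE, edgeR FDR = 0.00244 and 0.000944). *Il1rl2*, the IL-36 receptor, rose by 0.69 ± 0.13 and 1.65 ± 0.13 (SE, edgeR FDR = 0.000964 and 2.30e-07).

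Of 13 tested genes for maturation and release, 3 were called higher on day 1 and 8 on day 7, both against sham. These counts stand beside 7.79% and 15.3% of all genes, and the median log2 fold changes were 0.59 and 1.13. *Mefv*, which encodes pyrin, rose by 4.17 ± 0.62 on day 1 and *Nlrp3*, the inflammasome sensor, by 2.00 ± 0.38 (SE, edgeR FDR = 0.000176 and 0.000950). Of 21 genes of signalling below the IL-1 receptor, 0 were called in any of the 3 comparisons. Among all genes, 7.79% were called higher and 2.98% lower for day 1 against sham, and 8.55% and 2.69% for day 7 against day 1. For day 7 against sham these shares were 15.3% and 5.88%. By FDR alone 5 of the 21 rose and 2 fell on day 1, where 22.0% and 19.9% of all genes did. The difference from other genes was not tested. Of 19 tested genes known to be induced by IL-1, 11 were called higher on day 1, beside 7.79% of all genes. From day 1 to day 7, 6 of the 19 were called lower, beside 2.69%. On day 7 against sham 10 were called higher and 3 lower, beside 15.3% and 5.88%. The chemokine *Cxcl5* rose by 5.46 ± 0.49 on day 1 and the siderophore-binding protein gene *Lcn2* by 3.89 ± 0.46, and they fell by 3.10 ± 0.39 and 5.42 ± 0.50 by day 7 (SE). Other stimuli also induce these genes.

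Leukocyte markers also differed between the groups. The 12 neutrophil markers summed to 35.2, 62.3, 6.79 and 4.40 CPM in sham replicates 1 to 4, to 103, 193, 57.5 and 88.6 CPM on day 1, and to 20.3, 13.8, 15.7 and 48.0 CPM on day 7. Of the 10 that were tested, 6 were called higher on day 1, beside 7.79% of all genes. From day 1 to day 7, 7 of the 10 were called lower, beside 2.69%. Among them *Trem1* rose by 4.79 ± 0.86 and *Mmp9* by 3.33 ± 0.49 on day 1 (SE, edgeR FDR = 0.000663 and 0.000167). The other 4 tested markers did not pass on day 1, with log2 fold changes of 1.22 for *S100a8*, 1.22 for *S100a9*, 0.99 for *Mmp8* and -0.50 for *Retnlg*. *Ly6g* and *Mpo* were under the filter, and *Mpo* was highest on day 7, at a mean of 0.473 CPM against 0.0174 on day 1 and 0 in sham. These 6 genes are named for completeness and after their values were seen. The heart with the highest sum, day 1 AMI replicate 2, was also the heart with the most *Il1r2* and the most *Il1rn*. It had the highest monocyte and macrophage sum on day 1 too, 481 CPM, while *Il1b* was highest in replicate 1 (8.30 against 8.21 CPM). In sham, replicates 1 and 2 had the higher sums and also the higher *Il1b*. The same sham hearts were higher in monocyte and macrophage markers (254 and 288 CPM) and erythroid markers (1187 and 4494 CPM). Sham replicate 1 had 0 counts of *Il1rn*.

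Of the 12 monocyte and macrophage markers, 0 were called lower on day 7 than on day 1, beside 2.69% of all genes. In that comparison 1 was called higher, beside 8.55%, and by FDR alone 5 rose, beside 24.2%. The 12 genes summed to 188 to 288 CPM in sham, 341 to 481 on day 1 and 450 to 726 on day 7, with 6 called higher on day 1 and 9 on day 7 against sham, *Ccr2* and *Ly6c2* among them. T and NK cell markers summed to 2.04 to 2.96, 2.62 to 6.81 and 6.03 to 11.2 CPM in the same order, and mast cell markers to 8.97 to 14.1, 11.04 to 27.3 and 25.3 to 32.3. Within the mast cell sum, *Kit* alone had means of 5.67, 11.8 and 22.1 CPM. None of the other tested mast cell markers passed FDR in any of the 3 comparisons. Fibroblast markers summed to 2353 to 2741, 2404 to 3426 and 7759 to 15070 CPM, endothelial markers to 1026 to 1202, 868 to 921 and 1298 to 1462, and cardiomyocyte markers to 107166 to 122813, 65125 to 80714 and 53871 to 63854. Erythroid markers summed to 492 to 4494 CPM in sham and 242 to 977 CPM in the 8 AMI hearts. Against sham on day 7, the calls were 5 higher of 6 T and NK cell markers tested, 1 higher of 6 mast cell markers (*Kit*), 5 higher and 1 lower of 8 fibroblast markers, 0 of 9 endothelial markers, 8 lower of 11 cardiomyocyte markers and 4 lower of 7 erythroid markers. Of all genes tested, 7.79% were called higher on day 1, and 15.3% higher and 5.88% lower on day 7, all against sham. The part of these cell types in the members' changes was not tested.

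Genes that followed a member most closely over the 12 hearts were ranked by Pearson's r of log2 CPM among 13426 genes, as a description in which group differences and shared libraries contribute to every r. For *Il1b* they were *Ccr1* (r = 0.98), *Slfn4* (0.97) and *Itgam* (0.97), a chemokine receptor, a myeloid Schlafen gene and the gene of CD11b. For *Il1r2* they were *Ccl6*, *Diaph1* and *Rab44* (r = 0.96 each). *Il33* was followed most closely by *1700025G04Rik* (0.94), *Utp11* (0.94) and *Serpina3i* (0.91), and *Il1rl1* by *Frmd4a* (0.93), the endothelial receptor gene *Robo4* (0.91) and *Klk8* (0.90).

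RSEM divides by the length of the transcripts to which it assigns reads. If the deposited counts came from the same assignment, which the sources used here do not state, the count of a gene over its TPM would follow the mean length of its transcripts. Relative to the median gene of each library, this ratio of count to TPM was 1.89 ± 0.0103 for *Il1r1* and 0.422 ± 0.0176 for *Il1b* on day 1 (SD, n = 4). It was 0.638 ± 0.0707 for *Il1rn* on day 1 and 0.665 ± 0.0741 on day 7, and 0.407 ± 0.0820 for *Il1r2* on day 1, with hearts from 0.296 to 0.472. *Il1rl1* is of interest because its long transcripts encode membrane ST2 and a short one encodes the soluble decoy, with annotated lengths from 375 to 5302 bases. Its relative ratio was 1.98, 1.60, 1.94 and 1.84 in sham, 1.84, 0.925, 1.88 and 1.92 on day 1 and 1.55, 1.84, 1.75 and 1.90 on day 7. Day 1 AMI replicate 2 was alone in its low value, at 57 counts and 1.03 TPM. The *Il1rl1* values were listed after they had been seen, rest on 13 to 63 counts per heart, and give no count of either form.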

How the data were processed

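Whole-heart RNA from 4 sham, 4 day 1 AMI and 4 day 7 AMI mice was sequenced by the authors, who trimmed 150-bp paired reads, aligned them with STAR 2.4.0j (mm10, per the labels) and used RSEM for gene levels. Deposited were raw counts per gene, as whole numbers, and TPM with 2 decimals, both made by the authors. The counting tool and its strand setting are not given in the sources used here. Gene positions come from GENCODE M21 (GRCm38).

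Counts were tested in edgeR 4.0.16 (R 4.3.3) with TMM, filterByExpr by group and the quasi-likelihood test, in 1 fit of 3 groups and 12 libraries; the SE of a log2 fold change is the one its F statistic implies. The thresholds (FDR below 0.05, fold change of 2 or greater) are the study's, which used DESeq2. The fits were checked on simulated counts with known changes. That simulation gave every gene the same spread and placed changes only in genes above a minimum mean count. It did not build in a shift of scale between groups. Alternatives were DESeq2 1.42.0, other scalings and filters, limma 3.58.1 on TPM, a replicate block and leaving out each heart. Pair ratios used exact permutation tests.

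The 10 members, the gene lists and the tests were chosen with earlier results of these data known. Beyond the members, the text names for each list up to 2 genes with the largest change among those called, and 3 genes most correlated with each of 4 members; the *Il1rl1* ratios of count to TPM, the TATA box and the counts of hearts by role were added after seeing the data. The lower limit of detection was set at 3 counts.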

Additional observations from a re-analysis of the deposited data

Results flagged for a closer look

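*Il18bp* in day 7 AMI replicate 4, at 22.3 CPM, stood apart from the other 3 hearts of its group, which lay between 13.4 and 13.8 CPM. The gap to the nearest heart was 0.949 of the group's range, above Dixon's 95% critical value for 4 hearts. It was the only one marked among 42 groups of 4 hearts examined, and chance marks about 1 group in 20. Without that heart the log2 fold change of *Il18bp* between day 7 AMI and sham was 0.76, with an edgeR FDR of 0.0015 or less whichever heart was left out. Between day 7 AMI and day 1 AMI the log2 fold change was 0.22 without that heart (edgeR FDR = 0.246).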

How the results depend on the processing

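Of 431 refits of member fold changes, 396 kept their direction and side of the threshold, 30 passed it anew and 4, all *Il18* on day 1, no longer did. The other 1 reversed: *Il33* for day 7 AMI against day 1 AMI was -0.11 without day 7 AMI replicate 2, in a range of -0.11 to 0.26 over hearts left out (0.09 with all hearts). Without a fold change minimum, 7 members were called for day 1 AMI and 8 for day 7 AMI, both against sham, in place of 4 and 3. For day 7 AMI against sham, 8 were called with library sizes alone, 6 with limma on log2(TPM + 1) and 9 on log2(TPM + 0.1), where *Il1r2* passed as well; these scales moved the median of all genes by 0.40, 0.50 and 0.55. Leaving out 1 heart gave 3 to 6 calls there, 3 to 5 for day 1 AMI against sham and 3 in each case for day 7 AMI against day 1 AMI. *Il18* on day 1 missed the 2-fold minimum on log2(TPM + 1), at 0.88. The order of the largest day 1 rises also depended on the scale. For *Il1b*, *Il1r2* and *Il1rn* they were 2.69, 2.63 and 2.47 on log2(TPM + 1), but 4.24, 5.02 and 4.87 on log2(TPM + 0.1).

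The replicate numbers do not pair the hearts: deviations of 12 same-numbered pairs correlated between -0.24 and 0.23, and 4 of 12 were highest with their own number. With a replicate block the counts of calls stayed at 4, 3 and 3, and *Il1rl1* for day 7 AMI against sham no longer passed (FDR = 0.0687).

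Adjusted over 15 tests in each setting, no pair ratio passed, but a few tests at the smallest possible p could not have passed. The smallest adjusted p was 0.107 by exact permutation, both with 1 heart left out and in the other settings. Reversals came only from leaving out 1 heart. The range was -0.20 to 0.32 for *Il1rn* to *Il1b* (day 7 AMI against day 1 AMI), -0.0332 to 0.49 for *Il1r2* to *Il1r1* (day 7 AMI against sham), -0.36 to 0.0295 for *Il18bp* to *Il18* (day 7 AMI against day 1 AMI) and -0.40 to 0.22 for *Il1rl1* to *Il33* (day 7 AMI against sham). Ratios with sham rest on few counts: the difference of *Il1r2* to *Il1r1* on day 1 was 5.32 with a prior count of 0.5 and 4.05 on TPM. Counts under about 20 per heart limit *Il1a*, *Il18* and the sham values of *Il1rn* and *Il1r2*.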
